A study of Mus musculus with 8 samples.

Results

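The Toll-like receptors Tlr1 to Tlr6, the co-receptor Cd14, the adaptor Myd88 and the kinases Irak2 and Irak3 were followed in mouse ear epidermal sheets. These 10 genes were taken by name from the 51912 Ensembl genes counted in every library, and all 10 were found. Toll-like receptors are membrane proteins that bind conserved molecules of microbes, such as bacterial lipoproteins, lipopolysaccharide, flagellin and double-stranded RNA. Most of them recruit the adaptor Myd88, which assembles kinases of the Irak family into a complex that activates NF-kB, while Tlr3 signals through another adaptor, Ticam1. In skin these receptors are known from keratinocytes as well as from Langerhans cells and other leukocytes. A20, the ubiquitin-editing enzyme encoded by Tnfaip3, is known to restrain NF-kB activation downstream of them.

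RNA was sequenced from 8 mice, 4 labelled A20KIKO and 4 labelled A20WT, each library from a distinct animal. Both groups carried the conditional allele A20F/F, and those labelled A20KIKO also carried Krt5-CreERT2, a tamoxifen-inducible Cre driven by the promoter of a basal keratinocyte keratin. Mice of both groups were 8 weeks old, received 1 mg of tamoxifen in each of 2 injections on consecutive days, with sampling 7 days after the earlier of the 2. The comparison therefore asks which transcripts differ a week after induction of a keratinocyte deletion, with the Cre itself part of the difference. Library totals ranged from 40451075 to 89624373 counts, so that 3 counts were worth 0.0342 to 0.0735 counts per 1000000 counts of the library (CPM). Markers of the labelled tissue were abundant: 6 basal keratinocyte genes summed to 29221 to 40250 CPM under the A20WT and 21751 to 27428 CPM under the A20KIKO label, and 5 suprabasal ones to 21529 to 32718 and 25170 to 35250 CPM. The basal sums did not overlap, and 1 of the 6 basal genes was lower, Krt5, with 5574 to 6869 and 3354 to 3637 CPM (log2 change -0.83, edgeR adjusted p = 0.00272). The part of this difference in the results on the Toll-like receptor genes was not tested. The gene named by the label went against it. Tnfaip3 had 13.5, 19.6, 17.7 and 15.4 CPM in the libraries labelled A20WT and 90.9, 55.0, 64.0 and 86.2 CPM in those labelled A20KIKO. Its count covers the whole gene and therefore does not test the deletion of part of it.

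Tlr2 was the changed member of the 10. It was higher in the libraries labelled A20KIKO, and it stood at 6.19 times the level of those labelled A20WT. Of the 10 members, 8 passed the filter on low counts, 1 was higher and 0 were lower at an adjusted p under 0.05 in edgeR's quasi-likelihood test, where 2.43% of all 16512 tested genes were higher and 1.06% lower. Each library labelled A20KIKO lay above each labelled A20WT for 2 members, Tlr2 and Myd88, a pattern that 5.78% of all tested genes showed. Tlr6 passed the filter through the libraries in which it was high, so the share of members that were higher is not a measure of the family. Tlr1 and Tlr4 did not pass the filter.

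**Figure D1:**
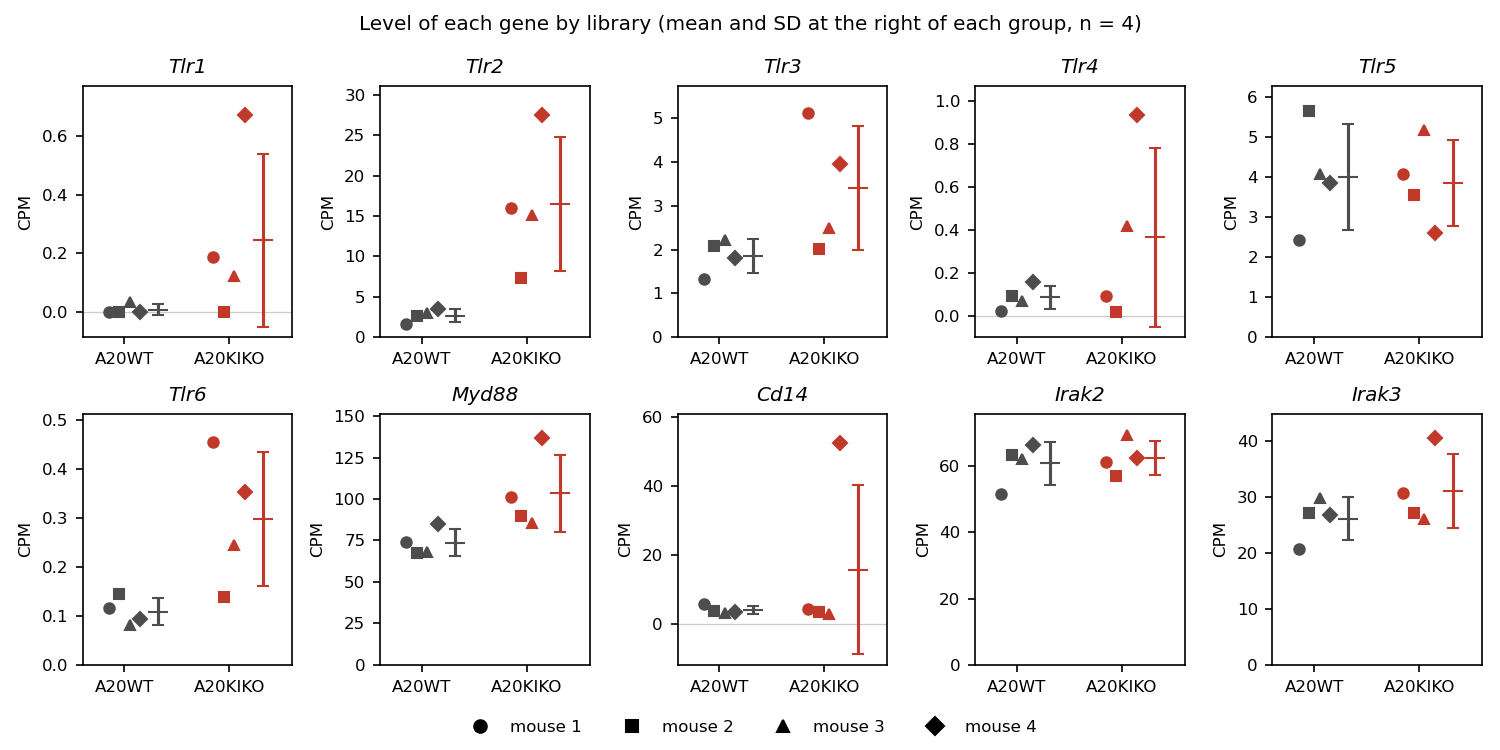
Each panel plots the CPM of 1 gene (vertical axis) in the 4 libraries labelled A20WT (grey) and the 4 labelled A20KIKO (red). Symbols mark the mouse number, and the bar at the right of each group gives the mean and SD. Tlr2 and Myd88 separate the groups, and Cd14 is at 52.4 CPM in A20KIKO mouse 4 and at 2.70 to 5.65 CPM in the other 7 libraries.

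Tlr2, the receptor for bacterial lipoproteins that pairs with Tlr1 or Tlr6, had 1.61, 2.61, 3.04 and 3.43 CPM in A20WT mice 1 to 4. It had 16.0, 7.39, 15.1 and 27.5 CPM in A20KIKO mice 1 to 4. The lowest library labelled A20KIKO, mouse 2, was above the highest labelled A20WT, and mouse 4 was the highest of all. With 4 libraries per label, the mean was 2.67 ± 0.782 CPM (SD) under A20WT and 16.5 ± 8.30 CPM (SD) under A20KIKO. The log2 change of 2.63 passed (95% interval 1.79 to 3.47, SE 0.38, adjusted p = 0.00391 in edgeR). Without A20KIKO mouse 4 the log2 change was 2.27 (adjusted p = 0.00263). The gene (ENSMUSG00000027995) lies on chromosome 3 at 83836272 to 83841767, minus strand, in GRCm38.

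Tlr1 and Tlr6, the partners with which Tlr2 recognises triacylated and diacylated lipoproteins, were near the limit of detection. Tlr6 had 10, 8, 7 and 6 counts in A20WT mice 1 to 4 and 39, 8, 10 and 31 counts in A20KIKO mice 1 to 4. In CPM, the mean of Tlr6 went from 0.108 ± 0.0277 to 0.298 ± 0.137 (SD, n = 4 each), with a log2 change of 1.48 (SE 0.51, 95% interval 0.36 to 2.59) that missed the threshold (adjusted p = 0.167 in edgeR). A20KIKO mice 1, 3 and 4 were above every library labelled A20WT, while mouse 2 lay within their range. Tlr1 had 3 counts in A20WT mouse 3 and 0 in the other 3 libraries of that label, against 16, 0, 5 and 59 counts in A20KIKO mice 1 to 4. A two-sided exact permutation test on the CPM of Tlr1 gave p = 0.143 (adjusted p = 0.286 over the 2 members that the filter removed), where the smallest p this design allows is 0.0286. In edgeR without the filter, Tlr1 had a log2 change of 4.45 (SE 1.25) and was not called (adjusted p = 0.0822). The 2 genes are neighbours on chromosome 5 with closely related sequences. Of the 150-base windows of the longest Tlr1 transcript, 4.83% occur unchanged in a Tlr6 transcript. For the longest Tlr6 transcript, 3.94% occur in a Tlr1 transcript. Read pairs that lie wholly within such stretches match both genes, and how they were counted is not given, so both levels carry some uncertainty.

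Tlr3, the endosomal receptor for double-stranded RNA, had 1.33, 2.07, 2.22 and 1.82 CPM in A20WT mice 1 to 4. It had 5.12, 2.01, 2.50 and 3.96 CPM in A20KIKO mice 1 to 4. Mice 1, 3 and 4 were above the range of the A20WT label, and mouse 2 was inside it. The log2 change of Tlr3 was 0.88 (SE 0.31, 95% interval 0.21 to 1.54), and it did not pass (edgeR adjusted p = 0.169). Tlr4, which binds lipopolysaccharide together with Ly96 and Cd14, had 2, 5, 6 and 10 counts in A20WT mice 1 to 4 and 8, 1, 17 and 82 counts in A20KIKO mice 1 to 4. The groups overlapped, with the highest value in A20KIKO mouse 4 (exact two-sided permutation p = 0.314, adjusted p = 0.314 over the same 2 members). In edgeR without the filter, Tlr4 had a log2 change of 2.12 (SE 0.89) and was not called (adjusted p = 0.34). Tlr5, the receptor for bacterial flagellin, had 2.44, 5.66, 4.08 and 3.85 CPM in A20WT mice 1 to 4 and 4.09, 3.55, 5.17 and 2.60 CPM in A20KIKO mice 1 to 4. Its groups covered nearly the same range, with a log2 change of -0.06 (SE 0.28, 95% interval -0.66 to 0.54, edgeR adjusted p = 0.953), and its sign changed when A20WT mouse 2 or A20KIKO mouse 4 was left out.

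Cd14, a co-receptor that hands lipopolysaccharide to Tlr4 and lipoproteins to Tlr2, was high in a single library. It had 5.65, 3.59, 3.04 and 3.29 CPM in A20WT mice 1 to 4 and 4.09, 3.24, 2.70 and 52.4 CPM in A20KIKO mice 1 to 4. Mouse 4 was the one labelled A20KIKO that lay above the range of the A20WT label. The log2 change of 2.01 (SE 1.12, 95% interval -0.70 to 4.71) missed the threshold (adjusted p = 0.482 in edgeR), and without A20KIKO mouse 4 it was -0.22 (adjusted p = 0.84). That library also had the highest summed level of the 10 neutrophil markers, 177 CPM against 35.3 to 44.9 CPM in A20KIKO mice 1 to 3 and 33.4 to 43.0 CPM in the libraries labelled A20WT. Most of that sum came from Mmp9 and Cxcr2, but the granule gene Retnlg, at 22.2 CPM, and the surface marker Ly6g, at 1.61 CPM, were also present in A20KIKO mouse 4. Ly6g had no count in any other library, Retnlg did not exceed 0.0173 CPM there, and the neutrophil protease gene Elane was at 0 in all 8. The 5 mast cell markers summed to at most 0.667 CPM, with Ms4a2 at 0. The part of these cells in the Cd14 value was not tested.

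Myd88, the adaptor shared by most Toll-like receptors and by receptors of the IL-1 family, had 74.2, 67.3, 67.9 and 84.8 CPM in A20WT mice 1 to 4. It had 101, 89.8, 85.7 and 137 CPM in A20KIKO mice 1 to 4. The groups did not overlap, but A20KIKO mouse 3 exceeded A20WT mouse 4 by less than 1 SD of either group. The log2 change of Myd88 was 0.49 (SE 0.15, 95% interval 0.16 to 0.82), 1.40-fold, and did not pass (edgeR adjusted p = 0.114). Without A20KIKO mouse 4 it was 0.33 (adjusted p = 0.277). Of the 2576 exon bases of Myd88, 290 overlap exons of Acaa1a on the opposite strand, and these libraries keep no strand. Acaa1a, a peroxisomal thiolase, had a mean of 275 CPM under the A20WT and 304 CPM under the A20KIKO label (log2 change 0.14, edgeR adjusted p = 0.662).

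Irak2, a kinase that sustains signalling after Irak1, had 51.5, 63.3, 62.2 and 66.5 CPM in A20WT mice 1 to 4. It had 61.3, 57.1, 69.3 and 62.3 CPM in A20KIKO mice 1 to 4. The groups overlapped, and the log2 change of Irak2 was 0.04 (SE 0.11, edgeR adjusted p = 0.929) with the narrowest interval of the 8 tested members, -0.21 to 0.29. Irak3, also called IRAK-M, an inhibitory member of the kinase family best known from macrophages, had 20.6, 27.1, 29.7 and 26.8 CPM in A20WT mice 1 to 4. It had 30.7, 27.1, 26.0 and 40.5 CPM in A20KIKO mice 1 to 4. Mouse 4 was again the highest, the groups overlapped, and the log2 change of Irak3 was 0.25 (SE 0.16, 95% interval -0.10 to 0.61, edgeR adjusted p = 0.522). Irak3 shares 192 of its 3676 exon bases with Tmbim4 on the opposite strand.

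**Figure D2:**
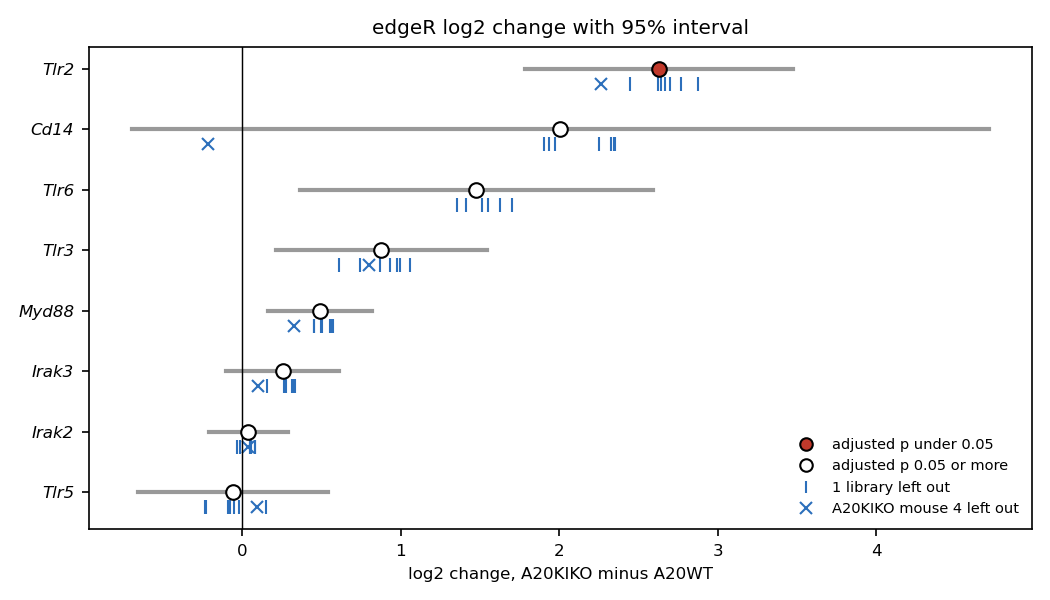
The log2 change (horizontal axis, A20KIKO minus A20WT) of the 8 tested members is drawn as a circle with its 95% interval, filled where the edgeR adjusted p was under 0.05. Blue ticks give the value with 1 library left out, and the blue cross that without A20KIKO mouse 4, where Cd14 moves from 2.01 to -0.22 and Tlr2 from 2.63 to 2.27.

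Levels of different genes were compared per kilobase of exon (RPKM). In the libraries labelled A20WT the order was Myd88 (28.6 ± 3.15 RPKM), Irak2 (13.8 ± 1.47), Irak3 (7.09 ± 1.05), Cd14 (2.25 ± 0.688), Tlr2 (0.887 ± 0.260), Tlr5 (0.837 ± 0.275), Tlr3 (0.357 ± 0.0751), Tlr6 (0.0291 ± 0.00743), Tlr4 (0.0152 ± 0.00988) and Tlr1 (0.00260 ± 0.00520 RPKM, SD, n = 4 each). The adaptor and both kinases thus had more RNA per length than each receptor. The ranges of neighbours overlapped for Tlr2 and Tlr5, for Tlr6 and Tlr4, and for Tlr4 and Tlr1, and for no other neighbours in this order. With the longest transcript as the length, Tlr5 stood above Tlr2 (1.05 and 0.887 RPKM) and the other 8 places were the same. In the libraries labelled A20KIKO, Tlr2 was at 5.48 ± 2.75 RPKM and Tlr5 at 0.804 ± 0.224 RPKM (SD, n = 4 each), and their ranges no longer met. There the range of Cd14, 1.56 to 30.2 RPKM, overlapped those of Irak2 and Irak3.

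**Figure D3:**
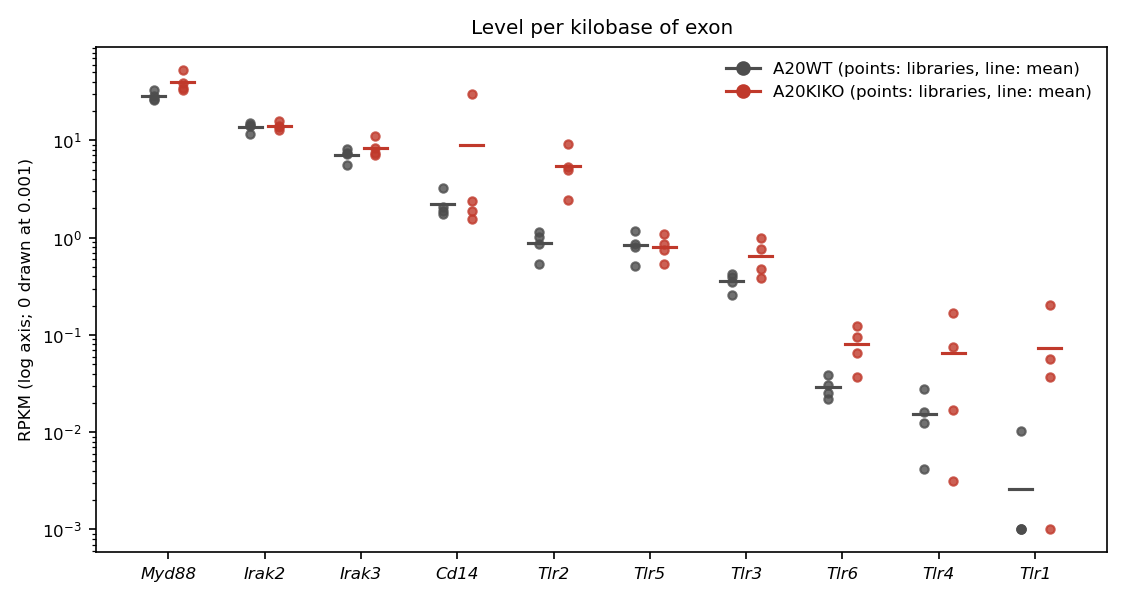
CPM per kilobase of exon (RPKM, log axis) is plotted for each gene in the order of its mean under the A20WT label. Points are libraries and lines are group means, and a value of 0 is drawn at 0.001. Tlr2 and Tlr5 lie at the same level under the A20WT label, and Tlr2 lies above Tlr5 in every library labelled A20KIKO.

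Marker levels of other cells moved with Tlr2 in part. The 14 monocyte and macrophage markers, none of them at 0 in all libraries, summed to 62.3 to 108 CPM under the A20WT and 110 to 155 CPM under the A20KIKO label. Csf1r, the receptor for a macrophage growth factor, gave 70.2% and 58.1% of the mean sums and was not called (log2 change 0.38, edgeR adjusted p = 0.324). Of the 11 tested, 4 were higher, where 2.43% of all tested genes were: the monocyte marker Ly6c2 and the complement genes C1qa, C1qb and C1qc. Ly6c2 passed the filter only with the libraries labelled A20KIKO, so this count is not a measure of the list. C1qb, for one, went from 0.392 to 0.776 CPM up to 2.25 to 13.3 CPM. The macrophage gene Adgre1 (F4/80) had 3.55 to 8.57 and 5.82 to 9.07 CPM, and Itgam (CD11b) 0.369 to 1.30 and 0.613 to 1.48 CPM, both with overlapping groups. The 5 markers shared by leukocytes summed to 118 to 157 and 147 to 232 CPM, with 0 of 5 called, and the 6 Langerhans cell markers to 1877 to 2381 and 2291 to 2524 CPM, with 0 of 6 called. The 6 T cell markers summed to 101 to 128 and 108 to 114 CPM. The 6 fibroblast markers were at 39.7 to 55.3 and 15.1 to 36.7 CPM, sums that lay apart with the A20KIKO label below, and 0 of the 5 tested were called. The 5 melanocyte markers were at 40.9 to 56.4 and 45.9 to 222 CPM, highest in A20KIKO mouse 2, with 0 of 5 called. The 5 endothelial markers were at 1.32 to 2.70 and 1.30 to 3.59 CPM with 0 of 4 called, and the 5 mast cell markers stayed at or under 0.667 CPM in each library, with none tested. In bulk tissue, more cells of a type and more RNA per cell cannot be told apart, and the part of these cells in the Tlr2 result was not tested. The 9 interferon-stimulated genes summed to 12.4 to 16.1 CPM under the A20WT label and to 1074, 340, 427 and 820 CPM in A20KIKO mice 1 to 4. Within the A20KIKO label, mouse 2 had the lowest interferon-stimulated sum, the lowest monocyte and macrophage sum and the lowest Tlr1, Tlr2, Tlr3, Tlr4, Tlr6 and Irak2, whereas Cd14, Myd88, Irak3 and Tlr5 were lowest in mouse 3 or mouse 4.

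**Figure D4:**
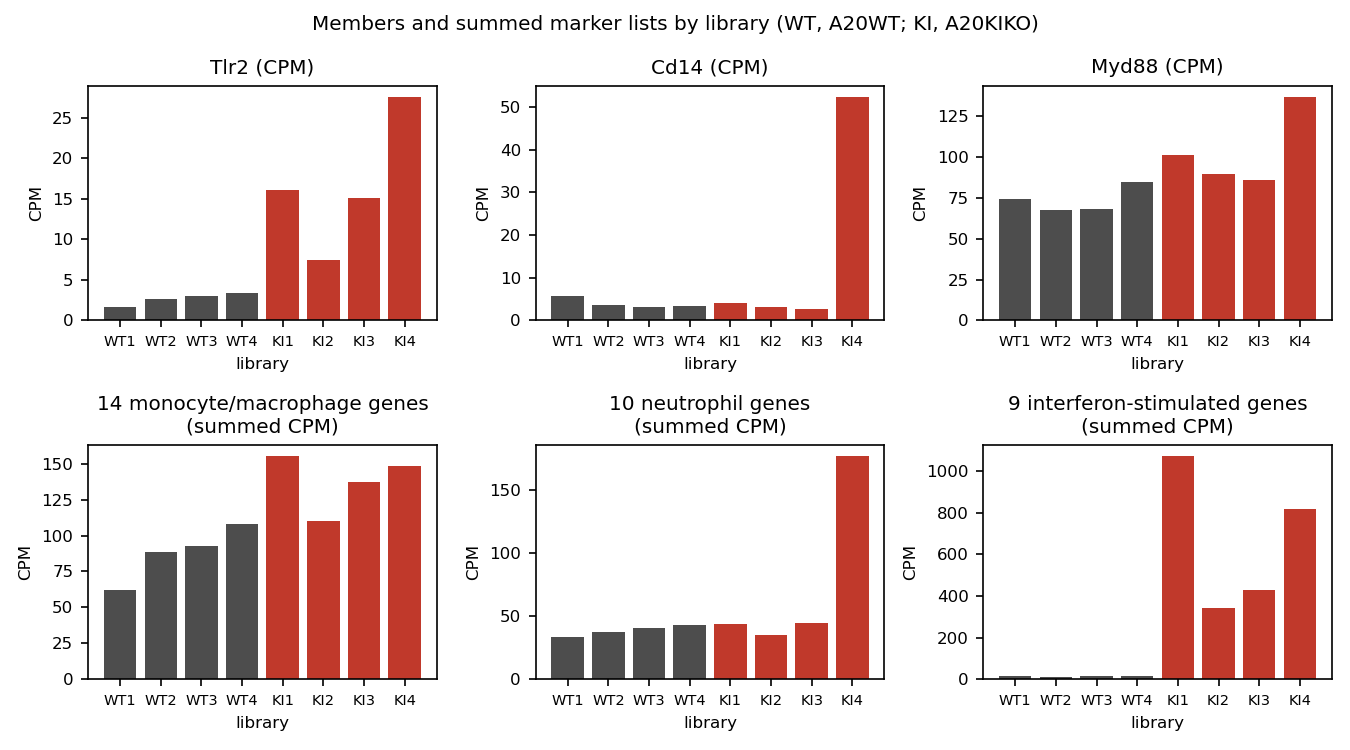
Bars give CPM in each of the 8 libraries for Tlr2, Cd14 and Myd88, and the summed CPM of 14 monocyte and macrophage genes, 10 neutrophil genes and 9 interferon-stimulated genes. Cd14 and the neutrophil sum (177 CPM) are high in A20KIKO mouse 4 alone, while the interferon-stimulated sum is high in the 4 libraries labelled A20KIKO and lowest among them in mouse 2 (340 CPM).

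Promoters were read for the members, each window running from 250 bases before to 50 bases after the RefSeq start site in GRCm38.p6. RefSeq windows matched 8 of the 10 members, 11 windows in all. They were searched on both strands for the NF-kB motif and for the interferon-stimulated response element (TTTC, 2 bases of any kind, TTTC), motifs chosen with the results known. The 4 windows with a match are shown, 5′ to 3′ on the gene's strand with matches in capitals. They were picked by the match, and the other window of Tlr6, without a match, is not shown. Whether a match goes with the change was not tested. The windows shown belong to the changed Tlr2 and to Tlr3, Tlr6 and Myd88. Among the members that passed the filter, those were also the ones higher at an unadjusted p under 0.05 in edgeR. Of all tested genes 8.48% were higher at that p. The share of members is not read against it, since Tlr6 passed the filter through the libraries in which it was high and the members were chosen with results known. Since the motifs were chosen the same way, the overlap with the matches supports nothing. In edgeR without the filter, Tlr1 (unadjusted p = 0.0023) and Tlr4 (unadjusted p = 0.028), both with few counts, were higher too. The Tlr1 windows held no match, and Tlr4 had no window.
Tlr2 (chr3:83841559-83841858, minus strand): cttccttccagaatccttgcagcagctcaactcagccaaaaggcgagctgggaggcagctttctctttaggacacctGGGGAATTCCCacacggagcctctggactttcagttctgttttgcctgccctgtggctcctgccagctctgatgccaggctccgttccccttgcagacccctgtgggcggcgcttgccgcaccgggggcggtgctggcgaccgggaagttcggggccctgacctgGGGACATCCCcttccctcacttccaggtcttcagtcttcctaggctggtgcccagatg
Tlr3 (chr8:45410331-45410630, minus strand): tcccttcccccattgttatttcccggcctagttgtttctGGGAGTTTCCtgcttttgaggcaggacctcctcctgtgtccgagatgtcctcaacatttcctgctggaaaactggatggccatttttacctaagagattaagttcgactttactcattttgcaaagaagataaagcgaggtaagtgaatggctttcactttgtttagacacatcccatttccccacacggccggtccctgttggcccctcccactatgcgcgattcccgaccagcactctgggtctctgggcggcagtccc
Tlr6 (chr5:64959117-64959416, minus strand, 1 of 2 windows of the gene): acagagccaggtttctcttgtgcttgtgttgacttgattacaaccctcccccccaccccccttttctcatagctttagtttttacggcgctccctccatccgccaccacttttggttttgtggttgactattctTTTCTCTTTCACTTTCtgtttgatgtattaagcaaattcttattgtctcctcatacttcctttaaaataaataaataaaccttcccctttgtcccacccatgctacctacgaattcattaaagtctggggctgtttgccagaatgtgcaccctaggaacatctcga
Myd88 (chr9:119339969-119340268, minus strand): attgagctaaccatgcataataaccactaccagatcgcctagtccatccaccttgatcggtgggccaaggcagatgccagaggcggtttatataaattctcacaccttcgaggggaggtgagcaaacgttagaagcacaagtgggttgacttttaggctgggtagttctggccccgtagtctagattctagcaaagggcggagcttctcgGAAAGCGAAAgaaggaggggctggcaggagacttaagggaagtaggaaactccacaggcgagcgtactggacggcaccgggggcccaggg
The Tlr2 window holds the NF-kB motif from positions -173 and -172, which overlap in 1 near-palindromic stretch, and again from -8, counted from the start site. The Tlr3 window holds it from -211. Of all 32851 mouse windows of this length, 4.51% hold the NF-kB motif and 3.44% the response element. The Tlr6 window holds the response element from -116 and -110, overlapping, and the Myd88 window holds it from -40 on the opposite strand. The windows of Tlr1, Tlr5, Irak2 and Irak3, and the other window of Tlr6, held neither set of letters. A match is a description of the sequence and shows no binding.

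Among 70 other genes of the pathway in 6 lists, 60 were tested, 6 were higher and 0 lower by edgeR. Of all 16512 tested genes, 2.43% were higher and 1.06% lower. The median log2 change was 0.08 against -0.01 over all tested genes. Some of the 60, among them Tlr13 and Ccl2, passed the filter only with the libraries labelled A20KIKO. The lists were also chosen with earlier results known, so the counts of higher genes are not a measure of the pathway. Of 6 further Toll-like receptors, 5 did not pass the filter and the tested one, Tlr13, a receptor for bacterial ribosomal RNA in mice, was not called. Tlr13 had 0, 0.0541, 0.162 and 0.217 CPM in A20WT mice 1 to 4 and 0.398, 0.225, 0.270 and 1.24 CPM in A20KIKO mice 1 to 4 (edgeR adjusted p = 0.19). Tlr7, a receptor for single-stranded RNA, had 0 counts in the 4 libraries labelled A20WT and 5, 2, 1 and 28 counts in A20KIKO mice 1 to 4. Of the 8 partners and chaperones, 0 were called. The most abundant were Hsp90b1, the chaperone gp96 that folds Toll-like receptors, with 177 ± 11.5 and 214 ± 43.0 CPM under the A20WT and A20KIKO labels, and its co-chaperone Cnpy3, with 47.4 ± 3.14 and 49.2 ± 3.00 CPM (SD, n = 4 each; edgeR adjusted p = 0.4 and 0.88).

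Of the 22 adaptors, kinases and ubiquitin ligases, 21 were tested and 1 was higher, Ikbke, a kinase that phosphorylates interferon regulatory factors. Over all tested genes, 2.43% were higher. Ikbke had 22.9, 33.2, 30.8 and 31.4 CPM in A20WT mice 1 to 4 and 58.9, 51.7, 52.2 and 53.9 CPM in A20KIKO mice 1 to 4. The groups lay apart, and the log2 change of 0.87 (SE 0.13) passed with an adjusted p of 0.00292 in edgeR. The other 20 tested genes of that list, among them Irak1, Irak4, Traf6 and the Tlr3 adaptor Ticam1, were not called, and their list had a median of -0.04. Of the 10 transcription factors, 2 were higher. Irf7, a factor that Myd88 activates downstream of endosomal receptors, had 10.99 ± 1.97 CPM under the A20WT and 122.9 ± 57.6 CPM under the A20KIKO label (SD, n = 4 each). It rose by 3.48 on the log2 scale (SE 0.35, adjusted p = 0.00126 in edgeR). Nfkbiz, a nuclear partner of NF-kB induced by Toll-like and IL-17 receptors, had 27.6 ± 7.78 and 63.5 ± 22.1 CPM. It rose by 1.20 on the log2 scale (SE 0.25, adjusted p = 0.0218 in edgeR), and it was not called without A20WT mouse 1, 2 or 3 (adjusted p up to 0.143).

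Of the 12 inhibitors of the pathway, 11 were tested and 0 called. The most abundant were Nfkbia, the NF-kB inhibitor, with 465 ± 199 and 754 ± 52.4 CPM, and Tollip, an Irak1-binding inhibitor, with 336 ± 65.3 and 295 ± 11.1 CPM under the A20WT and A20KIKO labels (SD, n = 4 each; edgeR adjusted p = 0.14 and 0.601). Of the 12 cytokine targets, 9 were tested and 3 were higher, where 2.43% of all tested genes were. Ccl2 among them passed the filter only with the libraries labelled A20KIKO, so this count is not a measure of the list. The monocyte chemokine Ccl2 had 0.217 ± 0.0984 and 1.73 ± 0.848 CPM, and rose by 2.96 on the log2 scale (SE 0.46, adjusted p = 0.00333 in edgeR). Tnf had 0.812 to 1.77 and 2.94 to 9.95 CPM (log2 change 2.04, edgeR adjusted p = 0.0121, and 0.0678 without A20WT mouse 1), and Cxcl1, a neutrophil chemokine, 0.577 to 1.54 and 4.41 to 21.3 CPM (log2 change 3.26, and 2.59 without A20KIKO mouse 4; edgeR adjusted p = 0.0151, and up to 0.0763 without A20WT mouse 1, 2 or 3). Both were highest in A20KIKO mouse 4, as Cd14 was.

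As a description over the 8 libraries, the genes whose log2 CPM followed each tested member most closely were picked from 10332 candidate genes that averaged 5 CPM or more. For Tlr2 these were Lrrfip1, Tap2 and Irf1 (Pearson r = 0.991, 0.989 and 0.988), of which the antigen peptide transporter subunit Tap2 and the interferon response factor Irf1 were called higher. For Cd14 they were Lsm12, the arginase gene Arg1 and the growth factor gene Hbegf (0.989, 0.972 and 0.966), and for Myd88 they were Acot7, the siderophore-binding lipocalin Lcn2 and Trabd2b (0.996, 0.986 and 0.978). Tlr3 was followed by Ddx31, Tor1aip2 and Pelp1 (0.974, 0.971 and 0.971), Tlr6 by Melk, Amigo3 and Rbm43 (0.981, 0.975 and 0.967), and Tlr5 by Ctnnal1, Cobl and Ank (0.978, 0.975 and 0.972). For Irak2 they were D030028A08Rik, Nol9 and Prr14l (0.949, 0.948 and 0.947). For Irak3 they were the oxidoreductase gene Ero1l, Wdr1 and Gk (0.986, 0.977 and 0.965). Of the genes that followed members other than Tlr2, only Rbm43 was called (log2 change 0.70, edgeR adjusted p = 0.0465). The points share libraries and the difference between the labels, and so many candidates over 8 libraries give high coefficients to the best of them.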

How the data were processed

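The authors deposited raw counts per Ensembl gene for 2 lanes of each library. SMART-Seq v4 cDNA, Nextera libraries and paired-end sequencing are named in the labels' protocols, a chemistry that keeps neither strand nor molecular identifiers, so PCR copies count as reads. The submitters' processing notes name STAR 2.4.2a, Picard 1.139, HTSeq 0.6.1p1, GRCm38.p5 and GRCh38 without roles, and the counting options are not given in them. The 2 lanes were summed, and 51633 of 51912 identifiers matched a symbol and a position in GENCODE M21 (GRCm38), from which exon lengths for RPKM were taken. Genes were kept with filterByExpr (minimum count 10, total 15), scaled by TMM and tested over all 16512 genes with edgeR 4.0.16 in R 4.3.3 (robust quasi-likelihood, two-sided, group as the only term). The Benjamini-Hochberg threshold was 0.05. SEs are the absolute log2 change over the square root of F, and 95% intervals use the test's degrees of freedom. CPM are scaled to TMM-adjusted library sizes. The correlations used log2 CPM at a prior count of 2. Exact tests and plots used Python 3.11.15, SciPy 1.17.1 and Matplotlib 3.10.9. The fit was tested on simulated counts.

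Groups came from the labels. The members, gene lists and marker lists were chosen with earlier results of these data known. Beside the 14 monocyte and macrophage markers, 1 was left out of the sums and is not reported here. All 10 members are named. Of each pathway list the called genes were named, or the 2 most abundant where none was called. The single markers and genes named without values were chosen after their values were seen. Same-numbered libraries were not taken as pairs: the correlations of their deviations from the group means were 0.0407, 0.0645, -0.0142 and 0.237. Alternatives were other size factors, no filter and a stricter one, DESeq2 1.42.0, limma-voom (limma 3.58.1), non-robust dispersions, single lanes, a replicate block and each library left out.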

Additional observations from a re-analysis of the deposited data

Results flagged for a closer look

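Dixon's test at the 95% level was run on 44 groups of 4 libraries (each member and each marker sum by label). In 3 of them 1 library stood apart. Chance flags about 1 group in 20 where values are normally distributed, which does not hold for counts near 0. A20KIKO mouse 4 had 52.4 CPM of Cd14, where the other libraries of that label had 2.70 to 4.09 CPM. The summed neutrophil markers had 177 CPM in the same library and 35.3 to 44.9 CPM in the other libraries of that label. Whether these values share a source was not tested. Tlr1 had 0.0348 CPM in A20WT mouse 3, which is 3 counts, and 0 counts in the other libraries labelled A20WT. Any value above 0 beside such zeros gives the largest Dixon ratio, 1.0, so this flag says nothing about the size of the value.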

How the results depend on the processing

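Tlr2 was called higher in the 18 alternatives run, with log2 changes of 2.27 to 2.88 and adjusted p of 2.85e-13 (DESeq2) to 0.0408 (without A20WT mouse 2). With 1 library left out the members called numbered 1 to 2, the second being Tlr1 without A20KIKO mouse 2, where it passed the filter only through the libraries in which it was high, so that this call supports nothing. All genes called numbered 576 by edgeR, 374 with the stricter filter (at least 5 CPM in at least 4 libraries), 1133 with DESeq2, and 348 to 619 with 1 library left out, the lowest without A20KIKO mouse 1 and then A20WT mouse 3 (355). The 6 other pathway genes called became 3 with the stricter filter, 11 with DESeq2 and 4 to 8 with 1 library left out. The sign of the log2 change turned for Tlr5 in lane 2 alone (0.042), for Tlr5 with 1 library left out (-0.24 to 0.15), for Cd14 (-0.22 without A20KIKO mouse 4, 2.35 at most) and for Irak2 (-0.034 to 0.082). None of these was called in any setting, and the cause was not tested. Cd14 had a log2 change of 0.99 by limma-voom and no adjusted p by DESeq2. Tlr6 did not pass the filter in 5 alternatives. In the replicate block, 1 member was called (Tlr2, log2 change 2.54, adjusted p = 0.00132), with 551 of all genes and 7 other pathway genes. Cd14 was at 0.62 there. Not every library correlated best with its own number. Counts of Tlr1, Tlr4, Tlr6 and Tlr7 were too few for small differences to be detectable at this depth, and the intervals cover the spread between mice and counting error together.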

Other observations

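A20WT mouse 1 differed from the other libraries in Fos and Atf3, genes of immediate early response in the list of transcription factors. Jun, another such gene of that list, did not set it apart, with 107 CPM there and 79.7 to 131 CPM in the other 7 libraries. Fos, a subunit of AP-1, had 241 CPM there, 21.7 to 30.0 CPM in A20WT mice 2 to 4 and 29.5 to 69.6 CPM in the libraries labelled A20KIKO. Atf3, a stress-induced repressor, had 41.8 CPM there and 6.23 to 17.5 CPM in the other 7 libraries. Nfkbia had 761 CPM in A20WT mouse 1 and 337 to 395 CPM in A20WT mice 2 to 4. For Nfkbia, A20WT mouse 1 lay inside the range of the libraries labelled A20KIKO, 681 to 797 CPM. In the same library Tlr2, Tlr3, Tlr4, Tlr5, Irak2 and Irak3 had their lowest CPM of the A20WT label, and Cd14 its highest. This was not particular to the members. The keratinocyte genes Trp63 (246 CPM, and 322 to 405 CPM in A20WT mice 2 to 4) and Itgb4 (151 CPM, and 226 to 295 CPM) were also lowest there. Krt14, with 25730 CPM, was highest there. These genes were chosen after their values were seen.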
